A study of Mus musculus with 6 samples.

Results

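The genes described here are 9 complement components and regulators, matched by gene symbol among the 29595 genes of the table: Cfb and Cfp of the alternative pathway, C3, the classical pathway genes C1ra, C1s1, C2 and C4b, and the regulators Cd55 and Serping1. They were picked with the result of this comparison known, so their differences between the groups are given as descriptions, without p-values. The cells were TKPTS, an established mouse line derived from kidney proximal tubule epithelium. Cells in the Hnf3a group (3 libraries) had been transfected with pcDNA3.1-Hnf3a-Flag, a plasmid for Flag-tagged HNF3α, the forkhead transcription factor now named FOXA1. Cells in the pcDNA group (3 libraries) had received the empty vector pcDNA3.1-Flag. RNA of both groups was taken 24 h after transfection and polyadenylated RNA was sequenced. The comparison asks which transcripts differ when HNF3α is supplied to these cells. Transfection was transient, and the share of cells that took up plasmid is not given in the sources used here.

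Complement is a cascade of plasma and surface proteins that marks targets for removal and calls in leukocytes. In the classical pathway the proteases C1r and C1s are held with C1q. C1r activates C1s, which cleaves C4 and C2 to form a C3 convertase. In the alternative pathway C3b binds factor B, factor D cleaves it, and properdin holds the resulting convertase together. Decay-accelerating factor (CD55) on the cell surface takes convertases apart, and the C1 inhibitor encoded by Serping1 blocks C1r and C1s. The liver makes most circulating complement, and kidney tubule cells are known to make C3 and factor B themselves.

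The libraries held 60473818 to 71154667 estimated counts in total. One sequenced fragment appeared to be worth about 4 of these counts, so a floor of 12 counts, or 3 fragments, was used for what depth can show, and all 9 genes lay above it in all 6 libraries. Foxa1, the gene the plasmid carries, was at 305 ± 26.2 FPKM (fragments per kilobase of transcript, scaled to library size; mean ± SD, n = 3) in the Hnf3a group and at 9.66 ± 0.259 FPKM in the pcDNA group. Of 19 proximal tubule and epithelial markers, 15 were analysed, and their summed level was 1811 to 1837 CPM (counts scaled to a fixed library total) in the pcDNA libraries and 1893 to 1951 CPM in the Hnf3a libraries. Epithelial and renal lineage genes such as Cdh1, Krt8, Krt18, Epcam and Pax8 carried most of this sum. Genes more particular to proximal tubule were scarce: the glucose transporter gene Slc5a2 had at most 3 counts in any library, Hnf4a 4 to 25, the endocytic receptor genes Lrp2 17 to 53 and Cubn 27 to 58, and the brush border enzyme genes Anpep 7 to 69 and Ggt1 47 to 94. Fibroblast markers set 2 libraries apart: their summed level was 65.2 and 81.9 CPM in Hnf3a replicates 2 and 3, with 8 of 8 genes above the floor, and 0.480 to 1.52 CPM in the other 4 libraries.

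The most abundant transcripts of the 9 genes, C3 and Cfb, were lower in the Hnf3a group, as were those of C1ra and Cd55. A test was run across all 17824 genes with enough counts (edgeR's quasi-likelihood test with Benjamini-Hochberg adjustment, adjusted p under 0.05). Cfb, C3, C1ra and Cd55 passed it, each lower with Hnf3a, so that 4 of the 9 genes were called lower and 0 called higher. Of all genes tested, 3.17% were called, 2.13% lower and 1.04% higher. Since these genes had been chosen on the same contrast, nothing is read from the distance between those shares. In bulk RNA, fewer cells expressing a gene and less RNA per cell cannot be told apart. The labels do not say whether replicates were separate cultures, so the spread between libraries may be technical.

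**Figure D1:**
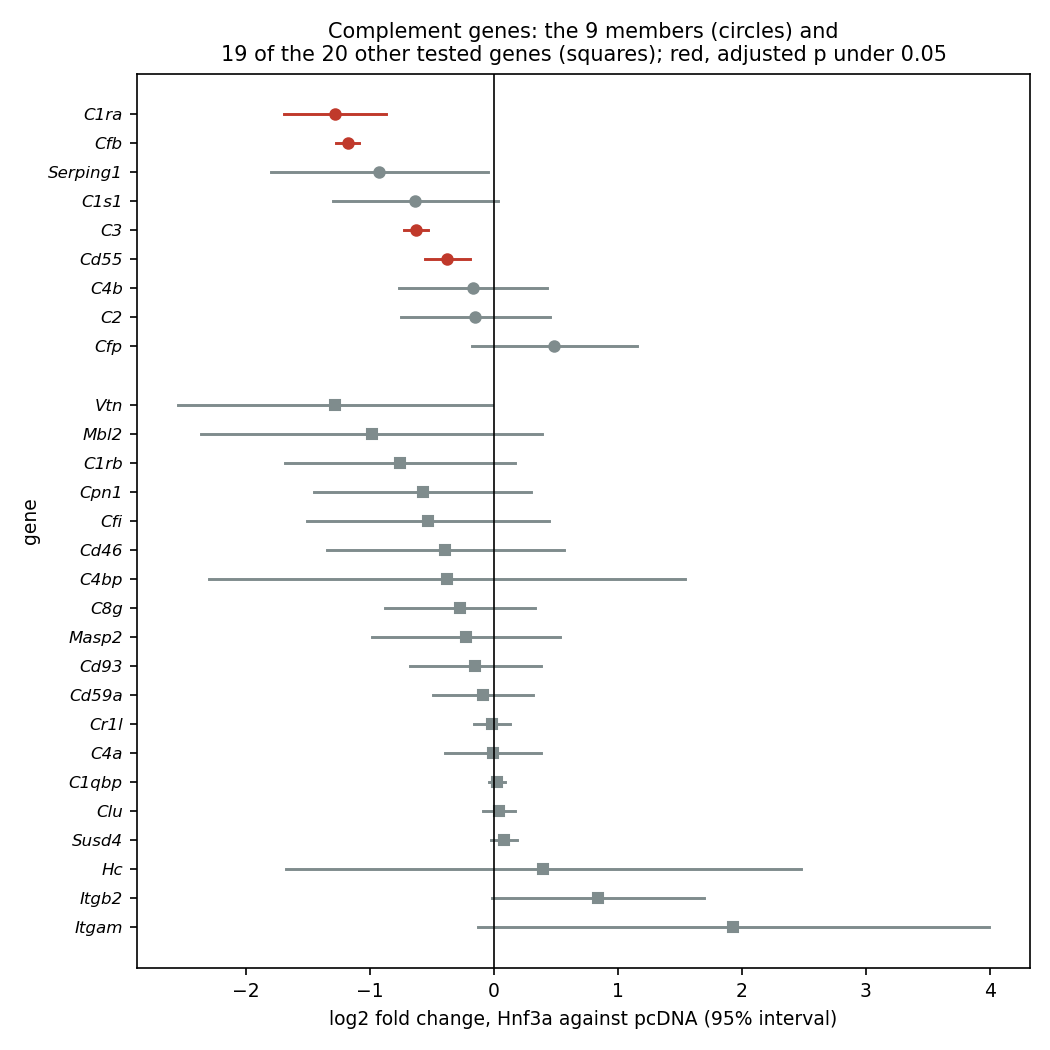
Log2 fold change of each complement gene, Hnf3a against pcDNA, with its 95% interval; circles are the 9 genes described here, squares 19 of the 20 other complement genes tested, and red marks an adjusted p under 0.05. Cfb at -1.18 and C3 at -0.63 have the narrowest intervals among the 4 genes in red, and no square is red.

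The 9 genes spanned a wide range of levels, which FPKM allows to be compared between genes because it is per transcript length. In the pcDNA group the order was C3, Cfb, Cd55, C1ra and Cfp, with no overlap between the libraries of neighbouring genes, and then Serping1, C1s1, C4b and C2, whose ranges overlapped from one to the next. C3 stood at place 162 of all 29595 genes by mean FPKM in the pcDNA group and Cfb at place 1307. In the Hnf3a group C3 was at place 281 and Cfb at place 3094. The order of the first 3 genes was the same there, while Cfp and C1ra had overlapping ranges. Summed over the 9 genes, the level was 267 ± 12.4 FPKM in the pcDNA group and 167 ± 6.72 FPKM in the Hnf3a group, and C3 made up 83.3 ± 0.708% and 87.1 ± 0.962% of it.

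**Figure D2:**
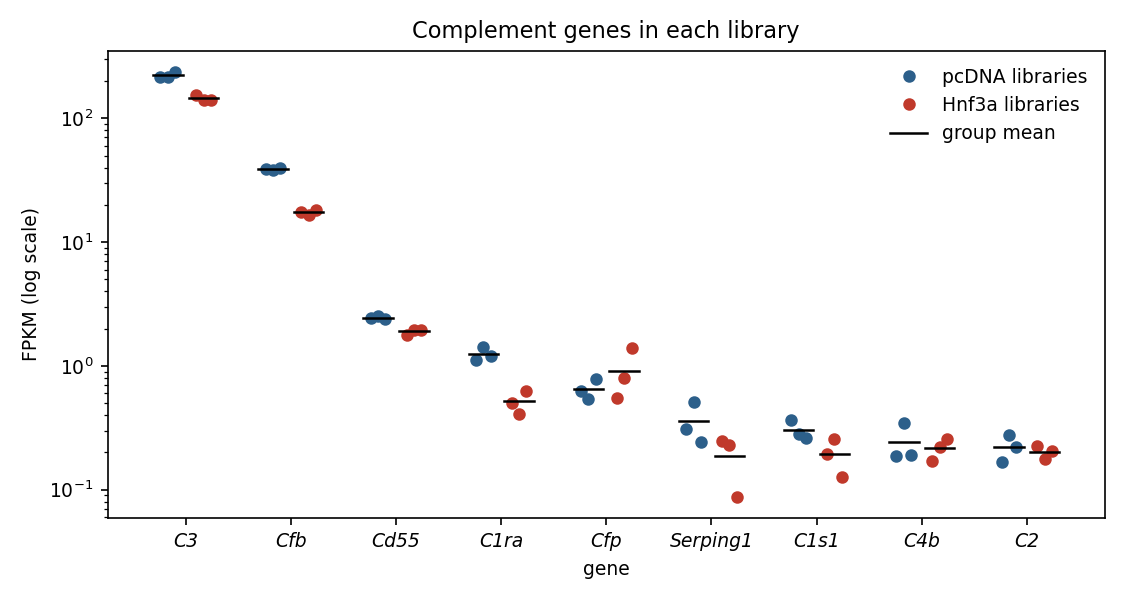
FPKM (log scale) of each complement gene in each library, pcDNA libraries in blue and Hnf3a libraries in red, with a bar at the group mean (n = 3). C3, Cfb, Cd55 and C1ra show separated groups, while the groups of Cfp, C4b and C2 overlap.

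Cfb encodes factor B, the serine protease zymogen that carries the catalytic part of the alternative pathway convertase. Its level was 39.3, 38.4 and 39.4 FPKM in pcDNA replicates 1, 2 and 3 and 17.3, 16.5 and 18.2 FPKM in Hnf3a replicates 1, 2 and 3. The Hnf3a libraries lay close together and well below all pcDNA libraries. The group means were 39.0 ± 0.547 and 17.3 ± 0.886 FPKM, and the fitted difference was 2.26-fold, with a log2 fold change of -1.18 ± 0.042 (SE) and a 95% interval from -1.27 to -1.09. With that of C3, this was the most precisely measured of the 9 fold changes. It rested on 7506 to 8119 counts per pcDNA library and 3565 to 3789 per Hnf3a library. Cfb overlaps Gm20547 and Mir6972 on the same strand, which had 0 to 20 and 2 to 13 counts per library, so few reads were assigned to them.

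Cfp encodes properdin, the stabiliser of the same convertase, which leukocytes are known to secrete. It was the one gene of the 9 with a positive fold change, and it did not pass the test. Its counts were 74, 70 and 99 in pcDNA replicates 1, 2 and 3 and 70, 111 and 180 in Hnf3a replicates 1, 2 and 3. Hnf3a replicate 1 lay within the pcDNA range and Hnf3a replicates 2 and 3 above it. The log2 fold change was 0.49 ± 0.31 (SE), with a 95% interval from -0.18 to 1.15, and without Hnf3a replicate 3 it was 0.051. Hnf3a replicates 2 and 3 were also the libraries with fibroblast marker counts. Their summed macrophage markers were 34.8 and 37.1 CPM against 26.2 to 29.9 CPM in the other 4 libraries. In Hnf3a replicates 2 and 3, 9 of 9 macrophage markers were above the floor, and 4 or 5 were elsewhere. Most of the summed level came from Cd68 and Csf1r, with 993 to 1178 and 554 to 853 counts per library. The part of these cell markers in the Cfp values was not tested.

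C3, the component on which all the pathways converge, had the highest level of the 9 genes. It measured 214, 217 and 237 FPKM in pcDNA replicates 1, 2 and 3 and 153, 141 and 141 FPKM in Hnf3a replicates 1, 2 and 3. The lowest pcDNA library remained above the highest Hnf3a library. The group means of 223 ± 12.3 and 145 ± 6.99 FPKM correspond to a fitted 1.54-fold difference, a log2 fold change of -0.63 ± 0.043 (SE) with a 95% interval from -0.72 to -0.53. The intervals of C3 and Cfb did not overlap. The ratio of C3 to Cfb in FPKM was 5.70 ± 0.282 in the pcDNA group and 8.38 ± 0.566 in the Hnf3a group, and the share of Cfb in the summed level was 14.6 ± 0.598% and 10.4 ± 0.609%.

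C1ra encodes the protease C1r, which activates C1s in the first complex of the classical pathway. Its level was 1.12, 1.43 and 1.19 FPKM in pcDNA replicates 1, 2 and 3 and 0.505, 0.410 and 0.633 FPKM in Hnf3a replicates 1, 2 and 3. All Hnf3a libraries were below all pcDNA libraries. C1ra had the largest fitted fold change of the 9 genes, 2.43-fold lower, with a log2 fold change of -1.28 ± 0.19 (SE) and a 95% interval from -1.69 to -0.87. It rested on far fewer counts than Cfb, 226 to 313 per pcDNA library and 97 to 139 per Hnf3a library. C1rb is a near copy of C1ra: 26.3% of the 150-base windows of the longest C1ra transcript also occur in C1rb, so reads could be split between the copies. C1rb itself had a log2 fold change of -0.75 ± 0.43 (SE; edgeR adjusted p = 0.508). The summed counts of both genes were 267, 344 and 285 in the pcDNA replicates and 132, 113 and 162 in the Hnf3a replicates, and these groups did not overlap either.

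C1s1, whose product C1s is the protease that C1r activates and that cleaves C4 and C2, lies beside C1ra and was counted at a low level. It had 78, 65 and 61 counts in the pcDNA replicates and 45, 65 and 31 in the Hnf3a replicates. Hnf3a replicate 2 equalled pcDNA replicate 2 in raw counts, and scaled by library size the groups did not overlap. The log2 fold change was -0.63 ± 0.31 (SE) with a 95% interval from -1.30 to 0.034, and the gene did not pass the test. Its point estimate equalled that of C3 to 2 decimals, with an interval that included 0. C1s2, which shares 2.86% of the 150-base windows of C1s1, and the C1r-like gene C1rl had too few counts to be tested. C1s1 and C1s2 together had 82, 81 and 68 counts in the pcDNA replicates and 45, 71 and 31 in the Hnf3a replicates.

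C2 and C4b encode the substrates of C1s that form the classical pathway convertase. C2 had 46, 82 and 64 counts in the pcDNA replicates and 66, 56 and 60 in the Hnf3a replicates, so the Hnf3a libraries lay inside the pcDNA range. Its log2 fold change was -0.15 ± 0.28 (SE), with a 95% interval from -0.75 to 0.45. C4b had 73, 147 and 80 counts in the pcDNA replicates and 72, 101 and 109 in the Hnf3a replicates, with pcDNA replicate 2 the highest of all 6 libraries. Its log2 fold change was -0.17 ± 0.28 (SE), with a 95% interval from -0.76 to 0.43. The sign of both rested on pcDNA replicate 2: without that library the log2 fold changes were 0.047 for C2 and 0.19 for C4b. For both genes the intervals include changes as large as that of C3, so a difference of that size is not excluded. C2 also overlaps Gm20547, and on the opposite strand Zbtb12, which had 1002 to 1172 counts per library, far more than C2. C4a, which shares 8.26% of the 150-base windows of C4b, had a log2 fold change of -0.0062 ± 0.18 (SE; edgeR adjusted p = 0.994).

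Cd55 encodes decay-accelerating factor, the membrane regulator that dissociates C3 convertases. Its level was 2.42, 2.55 and 2.37 FPKM in pcDNA replicates 1, 2 and 3 and 1.78, 1.96 and 1.96 FPKM in Hnf3a replicates 1, 2 and 3. The groups were separate and each was tight. The means were 2.45 ± 0.0913 and 1.90 ± 0.101 FPKM, and the fitted difference was 1.30-fold, a log2 fold change of -0.37 ± 0.084 (SE) with a 95% interval from -0.55 to -0.19. Its call was the least stable of the 4. Leaving out any library other than Hnf3a replicate 3 ended it, while the log2 fold change stayed between -0.39 and -0.33 over the 6 fits. Cd55b, which shares 2.25% of the 150-base windows of Cd55, had too few counts to be tested. Cd55 overlaps Gm16083 on the opposite strand, which had at most 3 counts in any library, and the strand setting used in counting is not given in the sources used here.

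Serping1 encodes the C1 inhibitor, a serpin that inactivates C1r and C1s and is made mainly by liver. It had 50, 88 and 43 counts in the pcDNA replicates and 42, 43 and 16 in the Hnf3a replicates. The highest Hnf3a library and the lowest pcDNA library were level, with 43 counts each, and Hnf3a replicate 3 was close to the floor. The groups were just separate in CPM. In FPKM they overlapped, with 0.245 in Hnf3a replicate 1 and 0.244 in pcDNA replicate 3. The log2 fold change was -0.92 ± 0.40 (SE) with a 95% interval from -1.80 to -0.049, and the gene did not pass the test after adjustment over all genes. Summed hepatocyte markers were 26.6, 32.6 and 18.3 CPM in the pcDNA replicates and 18.7, 13.1 and 13.7 CPM in the Hnf3a replicates. Most of this sum came from Alb, with 687 to 1312 counts per pcDNA library and 631 to 695 per Hnf3a library. The markers did not all move alike. Ahsg had 100 to 131 counts in pcDNA libraries and 24 to 74 in Hnf3a libraries, and Fga 68 to 91 and 23 to 44. Apoa2, with 23 to 95 and 20 to 81, and Ttr, with 47 to 81 and 27 to 93, overlapped. The part of these markers in the values of Serping1 and of the other genes known from liver was not tested.

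Across the 9 genes, 8 had a negative fold change, as did 8874 of all 17824 genes tested. The median log2 fold change was -0.63, beside 0.00085 over all genes tested. As the 9 genes were chosen on this contrast, nothing is read from these differences. Groups did not overlap in CPM for 6 genes: Cfb, C3, C1ra, Cd55, C1s1 and Serping1. Over all genes tested the groups did not overlap for 19.1%. With each library left out in turn, Cfb stayed between -1.21 and -1.14, C3 between -0.67 and -0.58 and C1ra between -1.45 and -1.13 in log2 fold change, and all 3 passed the test each time. The fold change of Serping1 moved between -1.15 and -0.58 and that of C1s1 between -0.88 and -0.42, without passing the test in any of these fits.

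**Figure D3:**
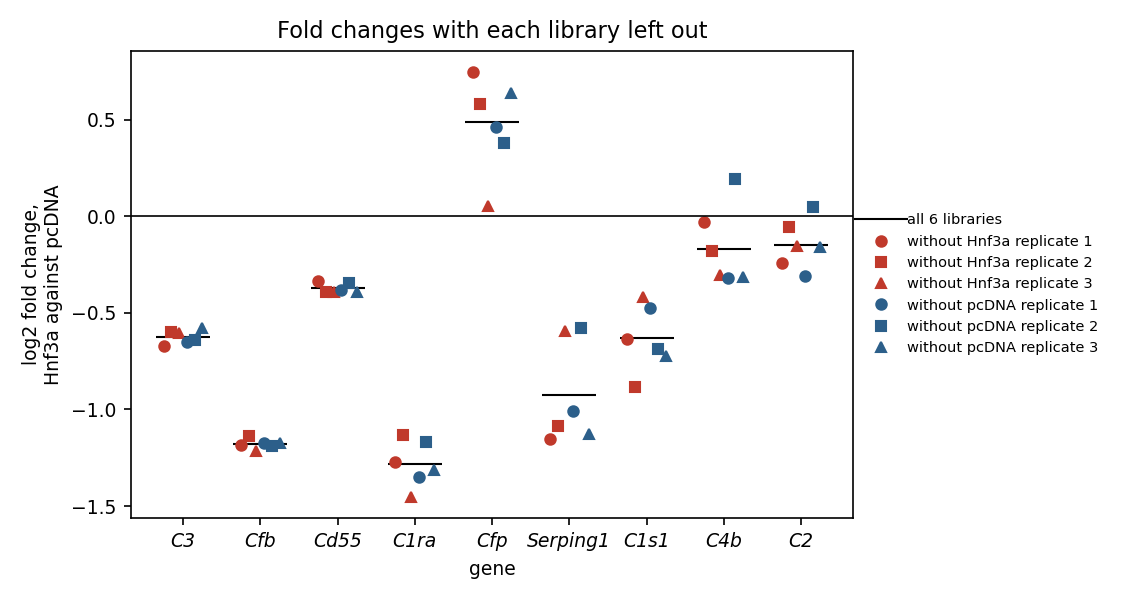
Log2 fold change of each complement gene, Hnf3a against pcDNA, with each of the 6 libraries left out in turn (red, an Hnf3a library left out; blue, a pcDNA library left out) and with all 6 (black bar). The points of C3, Cfb and Cd55 lie close to their bars, while C4b and C2 cross 0 without pcDNA replicate 2.

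The other complement genes were taken from a list of 49 written by function, of which 42 were in the table and 20 had enough counts to be tested. Over all 17824 genes tested by edgeR, 3.17% passed the adjusted threshold and 2412 had an unadjusted p under 0.05. By edgeR 0 of the 20 passed the adjusted threshold, 1 had an unadjusted p under 0.05, and DESeq2 and limma also called 0. Their median log2 fold change was -0.12, and 13 of 20 were negative. The gene under the unadjusted threshold was Vtn, which encodes vitronectin, an inhibitor of the terminal complex; it had 38, 47 and 27 counts in the pcDNA replicates and 21, 3 and 24 in the Hnf3a replicates, with a log2 fold change of -1.28 and an adjusted p of 0.363.

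Clu, Cr1l and C1qbp were measured well enough to bound a change. Clu, which encodes clusterin, an inhibitor of the terminal complex, was at 31.5 ± 2.69 FPKM in the pcDNA group and 32.6 ± 1.75 FPKM in the Hnf3a group, with a log2 fold change of 0.044 ± 0.059 (SE; edgeR adjusted p = 0.846). Cr1l encodes Crry, the rodent membrane regulator of C3 convertases, and had a log2 fold change of -0.014 ± 0.067 (SE; edgeR adjusted p = 0.965). C1qbp, named for binding C1q and known chiefly as a mitochondrial protein, had a log2 fold change of 0.028 ± 0.030 (SE; edgeR adjusted p = 0.785). Cd59a, which blocks the membrane attack complex, was measured less precisely, at -0.086 ± 0.19 (SE, edgeR adjusted p = 0.917). Its 95% interval ran from -0.49 to 0.32. The estimate for the soluble regulator factor I was wide: Cfi had a log2 fold change of -0.53 ± 0.45 (SE; edgeR adjusted p = 0.704). Cd46, a cofactor for factor I, had -0.39 ± 0.44 (SE; edgeR adjusted p = 0.803), and Hc, the gene of C5, had 0.40 ± 0.96 (SE; edgeR adjusted p = 0.924).

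Several genes of the remaining steps were at or under the floor, though not all. C8g of the terminal complex had 45 to 63 counts per library and the lectin pathway protease gene Masp2 had 26 to 53, with log2 fold changes of -0.27 and -0.22, and neither passed the test. Factor D (Cfd), which cleaves factor B, C7 of the terminal complex and Masp1, a relative of Masp2, were at or under 12 counts in all 6 libraries, as were 10 of the 42 listed genes in all. These counts limit transcripts in the culture as a whole and do not show absence.

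The C1q chains and several complement receptors, which macrophages and other leukocytes are known to express, were highest in Hnf3a replicates 2 and 3. C1qa had 27 counts in each of Hnf3a replicates 2 and 3 and 0 in the other 4 libraries. Itgax, a chain of complement receptor 4, was counted 60 and 73 times in those libraries and 0 times in the other 4. C3ar1, the receptor for C3a, had 40 and 50 counts there and 4 to 8 elsewhere. In all of these Hnf3a replicate 1 was level with the pcDNA group. C1qb, C1qc and C5ar1 had the same 2 libraries highest, with 57 and 75, 24 and 23, and 18 and 14 counts. Itgam and Itgb2, the chains of complement receptor 3, were tested with all 6 libraries and had log2 fold changes of 1.93 ± 0.90 (SE; edgeR adjusted p = 0.412) and 0.84 ± 0.39 (SE; edgeR adjusted p = 0.384). Itgb2 was above the floor in all 6 libraries, with 40 to 53 counts outside Hnf3a replicates 2 and 3. Cd93, listed among the receptors, did not share this pattern, with 72, 77 and 71 counts in the Hnf3a replicates and 57, 90 and 84 in the pcDNA replicates. Without Hnf3a replicate 1, the group holds exactly those 2 libraries. In that fit 5 of 28 other complement genes tested passed, all higher: Itgam, Itgax, C1qa, C1qb and C3ar1. Over all genes, 643 of 18556 passed in it. Itgax, C1qa, C1qb and C3ar1 had too few counts to be tested with all 6 libraries. They entered through the 2 libraries where they were highest, so nothing is read from this count. The fibroblast markers given above move with these genes, and so do most of the macrophage markers. Aif1 does not, with 20 and 17 counts in Hnf3a replicates 2 and 3 and 24 to 31 elsewhere. Cd68 and Csf1r were abundant in all 6 libraries. The part of these markers was not tested. With the Hnf3a group reduced to its replicate 1, the log2 fold changes were -1.17 for Cfb, -0.54 for C3, -1.30 for C1ra and -0.46 for Cd55, and the values of Cfp and C2 changed sign to -0.24 and 0.024. Cfb, C3 and C1ra were still called in that fit and Cd55 was not, but the fit takes its spread from the 3 pcDNA libraries alone and assumes that the single Hnf3a library varies like them.

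**Figure D4:**
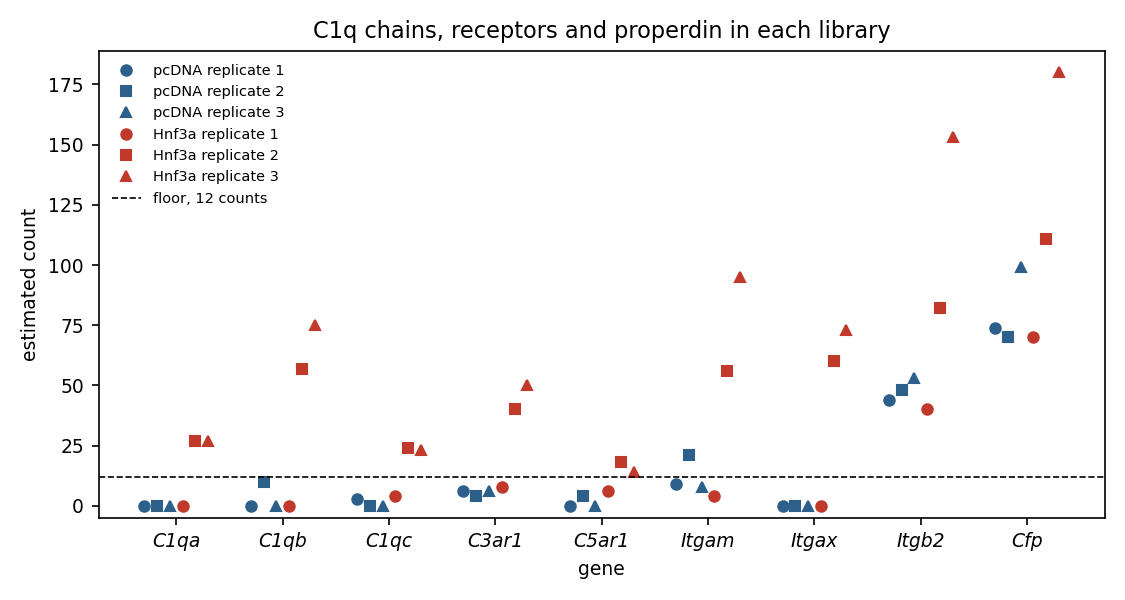
Estimated counts of C1q chains, complement receptors and properdin (Cfp) in each library, pcDNA in blue and Hnf3a in red, with the floor of 12 counts dashed. Hnf3a replicates 2 and 3 are highest for all 9 genes shown, and Hnf3a replicate 1 lies among or below the pcDNA libraries for Itgam, Itgb2 and Cfp.

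The genes sit in a few clusters of the mouse genome (GRCm38). Cfb (chr17:34856374-34862518, minus strand, 18 exons in its longest transcript) and C2 (chr17:34862604-34898265, minus strand, 18 exons) are tandem relatives in the major histocompatibility region, with 85 bases between them. C4b lies at chr17:34728380-34743882, and C3 lies elsewhere on the same chromosome at chr17:57203970-57228136. C1ra (chr6:124512405-124523443) and C1s1 (chr6:124530345-124542359) are 6901 bases apart on opposite strands. Cd55 is at chr1:130439027-130462744, Serping1 at chr2:84765387-84775444 and Cfp at chrX:20925454-20931555. Although Cfb and C2 are adjacent, no 150-base window of Cfb occurs in C2. The fold change of Cfb, -1.18, was not seen in its neighbours: of 11 tested genes within 100 kb that are outside the set described, 1 was called, the heat shock gene Hspa1b at -0.17 (edgeR adjusted p = 0.0230), and the range was -0.25 to 0.10. Of 5 tested neighbours of C3, 3 of C1ra and 2 of Cd55 outside the set, none passed the test by edgeR. Their log2 fold changes ran from -0.046 to 0.23 around C3, from -0.75 (C1rb) to 1.0 (Clstn3) around C1ra, and from -0.34 (Gm15675) to 0.0055 around Cd55.

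**Figure D5:**
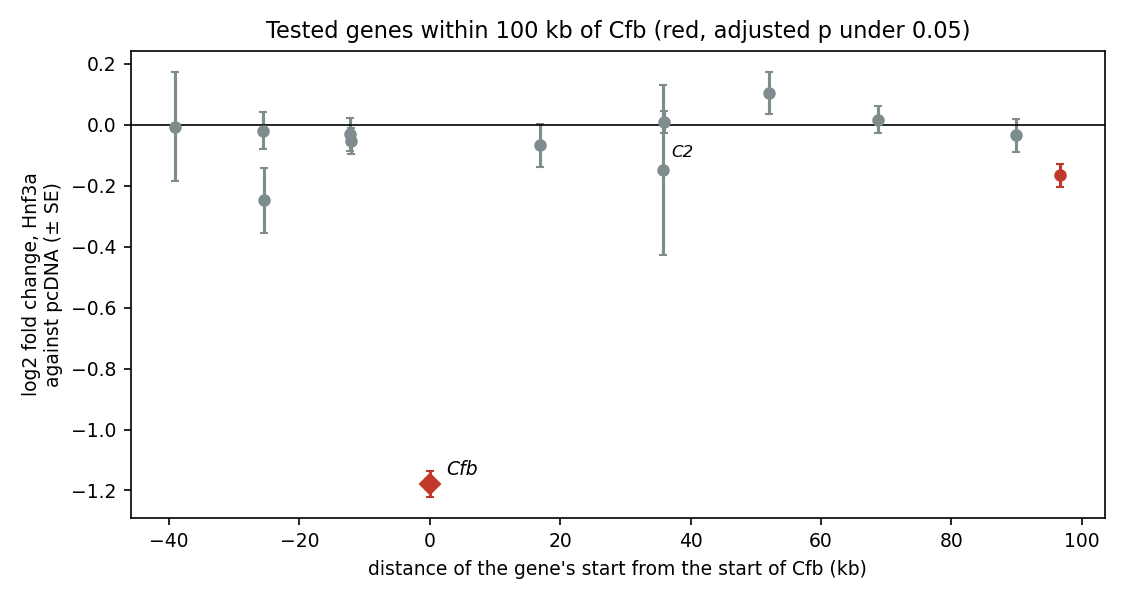
Log2 fold change (± SE), Hnf3a against pcDNA, of each tested gene within 100 kb of Cfb by distance of its start from that of Cfb in kb, with Cfb as a diamond and red for an adjusted p under 0.05. Cfb at -1.18 stands far below its neighbours, which lie between -0.25 and 0.10.

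The sequences just upstream of the start sites of C3 and Cd55 are shown because these called genes have a RefSeq start on GRCm38.p6 at the edge of the annotated gene. The 250 bases before each start are given 5′ to 3′ on the strand of the gene, with capitals for motif matches.
C3 (chr17:57228137-57228386, minus strand): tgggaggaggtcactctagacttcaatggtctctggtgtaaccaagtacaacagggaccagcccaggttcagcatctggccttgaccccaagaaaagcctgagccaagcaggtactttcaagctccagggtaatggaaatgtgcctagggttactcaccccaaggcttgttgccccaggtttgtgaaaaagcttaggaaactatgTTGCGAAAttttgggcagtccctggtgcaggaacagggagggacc
Cd55 (chr1:130462745-130462994, minus strand): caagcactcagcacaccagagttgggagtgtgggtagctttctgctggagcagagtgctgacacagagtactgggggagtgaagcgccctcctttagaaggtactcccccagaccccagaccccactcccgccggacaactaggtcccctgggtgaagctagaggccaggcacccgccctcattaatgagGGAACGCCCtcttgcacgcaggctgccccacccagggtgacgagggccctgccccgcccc

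Motifs were searched on both strands in windows of 300 bases, from 250 before to 50 after the start, for 5 of the 9 genes (Cd55, C1ra, C1s1, C3 and Cfp, in 6 windows) and for all 32851 windows. The NF-kB letters GGNNNTTCC occurred in 18.5% of all windows, and here in those of Cd55 and C1s1. The C/EBP letters TTGCNNAA occurred in 10.8% of all windows, and here in those of C3, C1ra and C1s1. In C3 the match in capitals lies from -45 to -38 relative to the start, and in Cd55 the NF-kB match lies from -60 to -52. In C1ra the matches lie after the RefSeq start, which itself lies inside the gene as placed above, so most of that window is within the gene and it is not shown. The forkhead letters TGTTTAC or TATTTAC, the core that FOXA proteins are known to bind, occurred in 6.54% of all windows and in 0 of the 6 windows here, which says only that these letters are not in these windows. STAT letters TTCNNNGAA (8.30% of all windows) matched in C1ra, and IRF letters TTTCNNTTT (10.6%) in 0 of the 6.

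The genes whose library profiles were closest to those of Cfb and C3 were found by the root mean square difference of centred log2 CPM over the 6 libraries, as a description. Closest to Cfb were Mab21l3 (0.0760), the neutrophil chemokine gene Cxcl5 (0.0838), the granulocyte colony-stimulating factor gene Csf3 (0.0863), Gm8752 (0.124) and the cadherin gene Cdh5 (0.127). Among the complement genes C1ra was closest to Cfb, at place 10 with 0.175, and C3 was at place 79 with 0.285. Closest to C3 were Micall2 (0.0328), the immediate early gene Fos (0.0352), the glutamate transporter gene Slc1a1 (0.0494), 0610040B10Rik (0.0506) and the copper transporter gene Slc31a2 (0.0594). All of these share the same 6 libraries and the difference between the groups.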

How the data were processed

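RNA was measured in 6 libraries of TKPTS cells, 3 per group, with groups and replicate numbers taken from the labels. Libraries were strand-marked, carried unique molecular identifiers and were read in pairs of 150 bases. A company did the processing. The submitters' processing notes name cutadapt 1.9, HISAT2 2.0.4, UMI-tools, StringTie 1.3.4d, DESeq2, edgeR and mm10; the counting step, its strand setting and the annotation release are not given in the sources used here. The authors deposited, per gene and library, an estimated count and an FPKM value. In every library more genes had 4 counts than 3 or 5, so counting precision is lower than the totals imply.

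The estimated counts were analysed with edgeR 4.0.16 in R 4.3.3 (filterByExpr, TMM scaling, robust quasi-likelihood test, two-sided, Benjamini-Hochberg adjustment at 0.05 over the 17824 genes kept). FPKM served for levels and, as log2(FPKM + 0.1), for limma 3.58.1 as an alternative; DESeq2 1.42.0 was another. The fitting script was tested on simulated data. P-values measure only the spread between these libraries, which may be technical. An exact permutation test of 3 against 3 libraries cannot give p below 0.1 and was not used. Positions and window sharing came from the GRCm38 annotation, promoters from RefSeq.

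Genes named are the 9 chosen, Foxa1, other complement genes past the threshold, close copies, the defining genes of each role, and the 5 genes most like Cfb and C3. Vtn, C1qbp, Itgax, Itgam, Itgb2, Cd93, C8g, Masp2 and the neighbouring genes were named after their values were seen. The members and lists were chosen with earlier results of these data known. Alternatives changed filter, scaling, tool, pseudocount, replicate block and libraries. One tested complement gene and 1 epithelial marker are not reported here by name.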

Additional observations from a re-analysis of the deposited data

How the results depend on the processing

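Cfb, C3 and C1ra passed the test in all 17 alternatives, with log2 fold changes from -1.21 to -1.13, -0.67 to -0.54 and -1.45 to -0.57. Cd55 passed in 7 of 17 (-0.46 to -0.25). It did not pass in the limma fits, with the replicate block, in 5 of the 6 fits without 1 library, or with the Hnf3a group reduced to its library 1, and 3 of the 9 genes were then called; that last fit takes its spread from the pcDNA libraries alone. Over all genes, 565 were called in the main analysis and 236, 231 and 245 by limma with pseudocounts of 0.1, 1 and 0.01, 322 with the Hnf3a group reduced to library 1, and 263 to 643 with 1 library left out (263 without Hnf3a replicate 2). The cause of these differences was not tested. DESeq2 called 819.

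Signs turned for C2 (0.047 without pcDNA replicate 2, and 0.024 with the Hnf3a group reduced to library 1; -0.31 to 0.047 over the fits without 1 library), for C4b (0.19 without pcDNA replicate 2; -0.32 to 0.19) and for Cfp (-0.24 with the Hnf3a group reduced to library 1). None of these passed the test in any of the 16 alternatives that gave them a value (the stricter filter removed them). The other complement genes called numbered 5 without Hnf3a replicate 1 and 0 in every other alternative. That fit kept the 2 Hnf3a libraries where these 5 genes were highest, so nothing is read from the count.

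With the replicate number as a block, 463 genes were called. Same-numbered libraries did not deviate together (correlations -0.028, -0.011 and 0.0061), and 1 of 6 libraries correlated best with its own number. This check showed no sign of pairing. With 3 libraries per group it cannot decide whether same-numbered libraries shared a batch. For Serping1, C1s1, C2, C4b and Cfp, with 16 to 180 counts per library, the 95% intervals span at least a factor of 2, which limits what can be seen.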
